A study of Mus musculus with 6 samples.

Results

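Of the 21878 rows in the expression table, 10 carried a symbol of the kind used for named long noncoding RNAs, snoRNA hosts or opposite-strand genes. They were chosen by symbol alone: Snhg followed by a number, Mir with a number and the ending hg, letters and a number followed by os (opposite strand), or one of the 12 names Gas5, Meg3, Malat1, Neat1, H19, Rian, Mirg, Miat, Tug1, Pvt1, Dleu2 and Kcnq1ot1. The rule found 9 os symbols and Snhg11, and 0 of the 12 names. The RNA came from Neuro-2a, an established line of mouse neuroblastoma cells. Of its 3 groups, the control cells were labelled wild type, and the others overexpressed the long noncoding RNA lncPim1 or had it lowered by RNA interference (knockdown). Each group had 2 libraries, made from total RNA with a stranded mRNA kit. No vector or scrambled control is named. Separate cultures are not stated either, so p-values here measure spread among libraries that may differ only technically. A row for lncPim1 was not found in the table used here, so its level was not checked.

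The rows did not match a group of long noncoding RNAs. RefSeq classes 6 of the 10 as protein-coding (among them Wdr83os, Zbtb8os, Ccpg1os, Trpc5os and Fancd2os) and 4 as lncRNA (Snhg11, Grin1os, Csmd2os and Nudt12os). GENCODE release M 21 gives Snhg11 too as protein-coding. Of the RefSeq mouse symbols that meet the rule, 1 of 17 Snhg symbols, 9 of 184 os symbols, 0 of 13 Mir host symbols and 0 of the 12 names had a row in the table used here. Of all rows, 80 (0.366%) carried a RefSeq lncRNA symbol and 92.5% a protein-coding one, while 1417 rows (6.48%) matched no RefSeq symbol and are of unknown class here. Gas5, Meg3, Malat1, Neat1 and the other 8 names were therefore not analysed here. The members are called below the os genes and Snhg11.

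An os symbol says that a gene lies on the strand opposite to a named neighbour, and says nothing of whether it encodes a protein. Wdr83os encodes Asterix, an endoplasmic reticulum protein that, with CCDC47, forms the PAT complex, which shields membrane-spanning segments of new proteins as they are inserted. Zbtb8os encodes archease, a cofactor of the RNA ligase RTCB, which joins the exons of spliced transfer RNAs and of the Xbp1 messenger RNA in the unfolded protein response. Snhg11 is a small nucleolar RNA host gene that is known for expression in neurons. Host genes carry snoRNAs, which guide chemical changes of ribosomal and other RNAs, in their introns, from which they are cut out.

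Promoter windows of Wdr83os and Zbtb8os are shown because these were the members called in a comparison. The windows are from RefSeq (build GRCm38.p6) and run from 250 bases before to 50 bases after the start annotated there. That of Wdr83os lies at chr8:85080713-85081012 and that of Zbtb8os at chr4:129335718-129336017, both on the plus strand. Capitals mark the letters CGGAAGT, the core bound by ETS factors, or their complement ACTTCCG.
Wdr83os: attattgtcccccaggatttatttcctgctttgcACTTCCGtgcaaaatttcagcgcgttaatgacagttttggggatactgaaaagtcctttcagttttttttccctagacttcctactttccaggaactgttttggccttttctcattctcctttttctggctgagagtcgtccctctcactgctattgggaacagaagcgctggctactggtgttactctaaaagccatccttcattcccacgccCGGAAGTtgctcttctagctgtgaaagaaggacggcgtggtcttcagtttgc
Zbtb8os: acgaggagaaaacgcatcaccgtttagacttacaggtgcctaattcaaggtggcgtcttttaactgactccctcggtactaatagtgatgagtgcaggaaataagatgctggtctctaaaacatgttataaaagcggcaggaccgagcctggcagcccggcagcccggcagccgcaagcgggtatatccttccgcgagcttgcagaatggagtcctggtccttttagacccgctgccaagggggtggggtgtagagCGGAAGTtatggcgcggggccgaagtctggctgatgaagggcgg

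Counted from the RefSeq start, the letters begin at -216 and -2 in the Wdr83os window and at 7 in the Zbtb8os window. GENCODE, used for gene coordinates below, starts Wdr83os at 85080740 and Zbtb8os at 129335695. By GENCODE the whole Zbtb8os window lies inside its gene, as does most of the Wdr83os window, including its marked letters. Of the 8 members with a RefSeq window, these 2 held the letters on either strand, as did 6.42% of all 32851 windows. The AP-1 letters TGACTCA or TGAGTCA stood in 1 member window, that of Fancd2os, and in 5.20% of all windows. CACGTG (E-box, in 7.15% of all windows), TGACGTCA (CRE, 1.79%) and the NRF1 motif (0.971%) stood in 0 of the 8. These are matches of letters in a window, not sites known to be bound.

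Among the 10 members, Snhg11 is the one named as a snoRNA host. GENCODE places 2 snoRNA genes of 133 bases on the plus strand within it, Gm25187 at chr2:158378222-158378354 and Gm25129 at chr2:158379534-158379666 (build GRCm38). Their sequences, from the GENCODE transcripts, are shown to say what this host carries. Capitals mark AGAGGA, which has the form ANANNA of an H box, and the closing ACA, the letters after which H/ACA snoRNAs are named.
Gm25187: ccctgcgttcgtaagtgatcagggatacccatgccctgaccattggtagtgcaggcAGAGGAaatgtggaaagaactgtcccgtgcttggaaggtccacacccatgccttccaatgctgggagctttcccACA
Gm25129: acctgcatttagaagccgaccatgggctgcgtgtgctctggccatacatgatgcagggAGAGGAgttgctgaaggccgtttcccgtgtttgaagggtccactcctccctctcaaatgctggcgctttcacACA

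The AGAGGA letters run from position 57 to 62 in Gm25187 and from 59 to 64 in Gm25129, and the aligned sequences were identical at 93 of 136 columns (68.4%). All 133 bases of Gm25187 also lie in an annotated exon of Snhg11, and 0 bases of Gm25129 do. The deposited row is that of the Snhg11 host, and neither small RNA had a row in the table used here. Whether reads from the shared stretch were counted for the host is not known here.

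The authors deposited FPKM values, that is, fragment counts scaled by transcript length and by the total of the library. Summed FPKM ran from 272528 to 305463 over the 6 libraries and between 15120 and 15573 rows were above 0. Library depth in reads is unknown. Of 14 markers of neuroblastoma and sympathetic neurons, 12 had a mean of at least 1 FPKM. Dbh, which encodes the enzyme that makes noradrenaline, stayed between 0.155 and 0.494 FPKM.

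Across the members, levels ran from 0 to more than 40 FPKM. Of the 10, 4 were above 0 in every library (Wdr83os, Zbtb8os, Ccpg1os and Trpc5os), 4 in some libraries (among them Snhg11, Fancd2os and Grin1os) and 2 were listed at 0 in all 6 (Csmd2os and Nudt12os). By mean FPKM over all libraries, Wdr83os ranked 1324 and Zbtb8os 2244 of the 21878 rows, and Ccpg1os ranked 10284. Only 3 members, Wdr83os, Zbtb8os and Ccpg1os, reached the mean of 1 FPKM needed for testing, as did 10721 rows in all. None of the 4 members that RefSeq gives as lncRNA reached it.

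Wdr83os was measured at 45.5 and 47.6 FPKM in control cells. Its overexpression libraries had 37.3 and 41.0 FPKM and its knockdown libraries 37.3 and 40.4. Both treated groups lay below the controls without overlap, and they overlapped each other. Groups of 2 libraries can separate without a difference between them. For this and the members below, the share of all rows that separate so was not counted. Zbtb8os stood at 28.05 and 29.6 FPKM in the controls, 27.7 and 26.4 under overexpression, and 21.5 and 20.1 under knockdown. Its knockdown libraries were the lowest of the 6, while overexpression libraries lay just under the controls. Ccpg1os stood at 1.42 and 1.23 FPKM in the controls, 1.07 and 1.35 under overexpression, and 2.04 and 1.19 under knockdown. Its groups overlapped, and the 2 knockdown libraries held both the highest and the second lowest value. Trpc5os, under the level for testing, stood at 0.414 and 0.510 FPKM in the controls, 0.329 and 0.434 under overexpression, and 0.353 and 0.377 under knockdown. Both knockdown libraries were below both controls, and overexpression overlapped with each of the other groups.

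**Figure D1:**
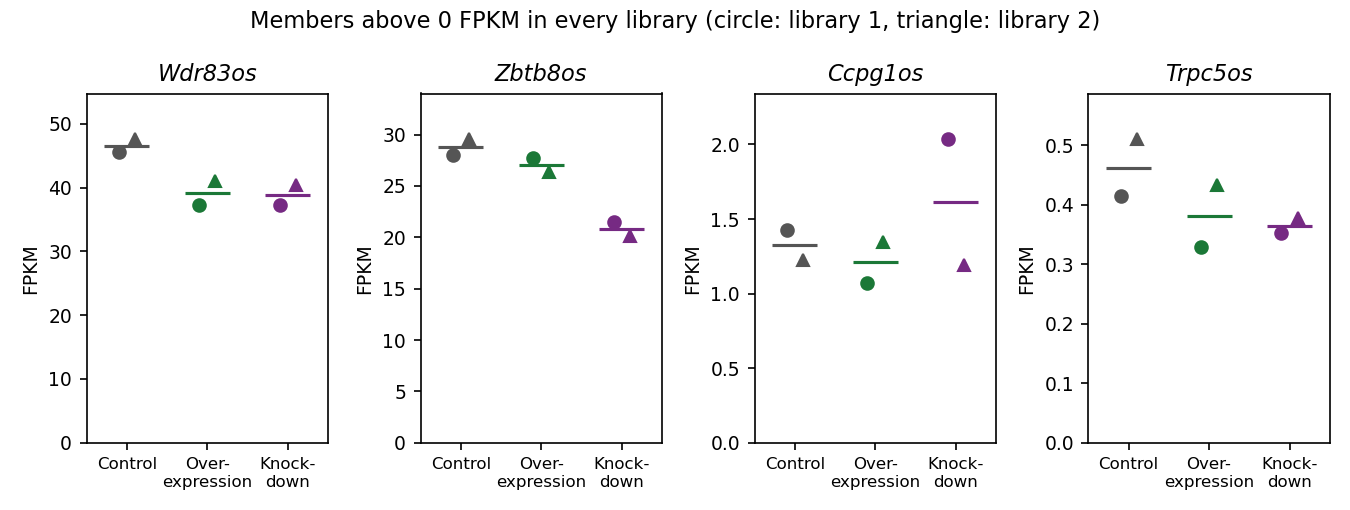
FPKM (vertical axes, from 0) of the 4 members above 0 in every library, by group. Points are libraries (circle 1, triangle 2) and lines are group means; Wdr83os is lower in both treated groups than in the controls, Zbtb8os in the knockdown libraries, at 21.5 and 20.1.

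To ask what lowering lncPim1 changed, knockdown was compared with control. Zbtb8os and Wdr83os fell, and Ccpg1os was not called. Zbtb8os went from 28.8 ± 1.07 FPKM (SD, n = 2) to 20.8 ± 0.970, or 72.2% of control. Wdr83os went from 46.6 ± 1.48 to 38.9 ± 2.16, or 83.4% of control. On the log2(FPKM + 1) scale Zbtb8os fell by 0.45 ± 0.06 (SE; limma, Benjamini-Hochberg adjusted p = 5.12e-04). Wdr83os fell by 0.26 ± 0.06 (limma, adjusted p = 0.0103). Ccpg1os had a log2 fold change of 0.15 with a 95% interval from -0.19 to 0.49 (limma, adjusted p = 0.441). Lower calls were common in this comparison, at 31.3% of the 10721 tested rows (46.2% called in either direction), and the 2 of 3 members called lower are to be read against that share. The fold change of Zbtb8os was among the lowest 5.96% of tested rows and that of Wdr83os among the lowest 22.3%. The median over all tested rows was -0.07.

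The fall of Zbtb8os stayed called under each of 15 other settings, with adjusted p from 3.67e-04 to 0.00629 (limma). The Wdr83os call was lost after quantile normalization (limma, log2 fold change -0.12, adjusted p = 0.146), without control 2 (-0.22, adjusted p = 0.0699) and without knockdown 1 (-0.20, adjusted p = 0.0610), and under median log ratio scaling it stood at -0.17 (adjusted p = 0.0475). For Ccpg1os 1 library set the direction. Without knockdown 2 it was called higher (limma, log2 fold change 0.39, adjusted p = 0.0442), and without knockdown 1 it stood at -0.08.

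Digestive-tract markers were lower under knockdown, and Cd68, listed here as a macrophage marker, was higher. Summed over 18 digestive-tract markers, FPKM was 59.5 to 63.4 in the controls, 56.7 to 70.9 under overexpression, and 25.1 to 25.8 under knockdown. In both knockdown libraries 10 of the 18 were listed at 0 (Defa24, Fabp1, Prap1, Prss2, Reg1, Reg3b, Reg3g, Tff2, Tff3 and Zg16). Cela1 (20.3 and 20.6) and Vil1 (4.08 and 4.51) made up most of the knockdown sum. In the controls Cela1 stood at 23.2 and 25.9 and Vil1 at 5.03 and 5.46. Over 6 macrophage markers the sum was 0.458 to 0.548 in the controls, 0.695 to 0.843 under overexpression and 3.34 to 4.41 under knockdown. Of the knockdown sum Cd68 alone was 3.31 and 4.31, with Adgre1 at 0 in both knockdown libraries. Cd14 went down, from 0.0746 and 0.116 FPKM in the controls to 0 and 0.0343 under knockdown. Itgam, Ptprc and Csf1r did not exceed 0.0242 FPKM in any library. The 14 neuroblastoma and sympathetic markers summed to 1092 to 1123 in the controls, 949 to 1031 under overexpression and 780 to 797 under knockdown. Tubb3, Phox2a, Stmn2 and Hand2 carry most of that sum. Th, which encodes tyrosine hydroxylase, went the other way, from 4.99 and 4.67 FPKM in the controls to 11.9 and 9.32 under knockdown, and Mycn stood at 10.19 and 10.16 in the controls and 9.79 and 9.51 under knockdown. The part of these markers in the falls of Zbtb8os and Wdr83os was not tested. Where the RNA of the digestive-tract markers came from in libraries of an established Neuro-2a line was not tested either. In these bulk libraries, fewer cells of a type and less RNA per cell cannot be told apart. The 6 fibroblast markers (1.11 to 1.495 FPKM in sum over all libraries) and the 4 endothelial ones (1.84 to 2.74) stayed low.

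**Figure D2:**
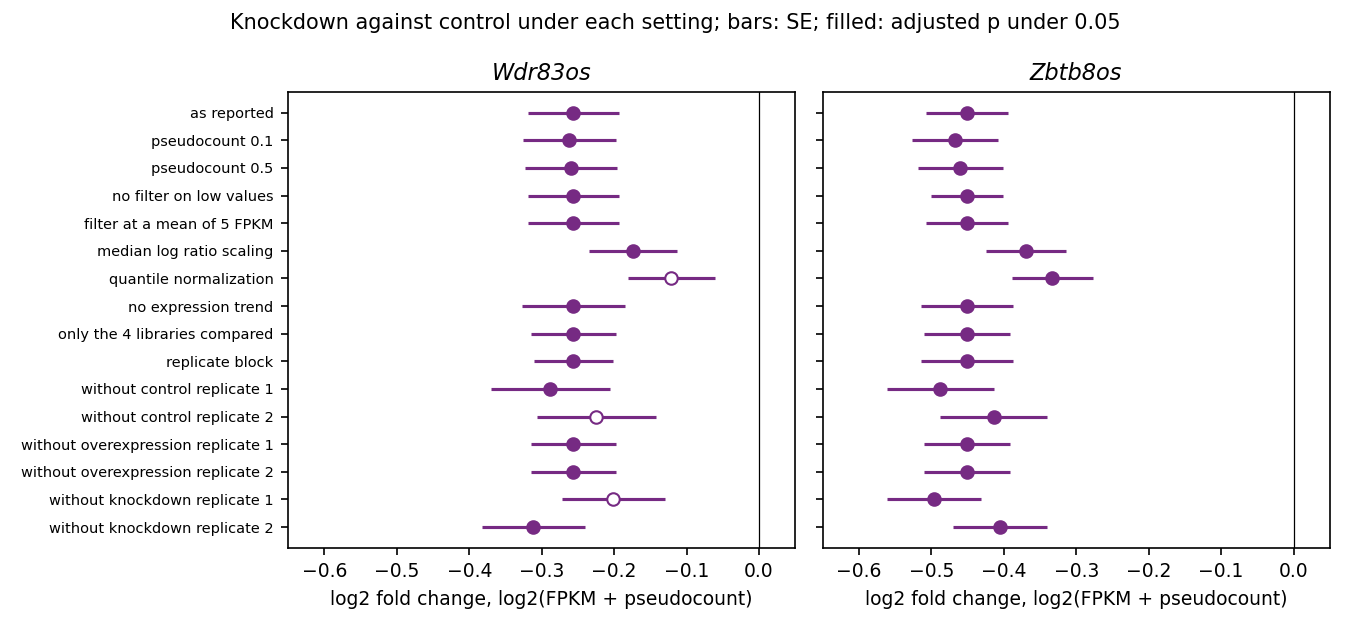
Log2 fold change of Wdr83os and Zbtb8os between knockdown and control (horizontal axes) under each setting, with bars of 1 SE; filled points are called. Every value is below 0, all Zbtb8os points are filled, and 3 of the Wdr83os points are open.

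To ask what raising lncPim1 changed, overexpression was compared with control. Limma called 0 of the 3 tested members. An unadjusted p under 0.05 was reached by 1, Wdr83os, and by 1833 of all 10721 tested rows. Wdr83os averaged 39.2 ± 2.58 FPKM (SD, n = 2), or 84.1% of control, with a log2 fold change of -0.25 ± 0.06 (limma, adjusted p = 0.103; 95% interval from -0.39 to -0.10). That fold change was among the lowest 3.16% of tested rows, and over 15 other settings the adjusted p ran from 0.0881 to 0.409. Zbtb8os averaged 27.0 ± 0.919 FPKM and had a log2 fold change of -0.09 (limma, adjusted p = 0.478; interval -0.22 to 0.04). Ccpg1os had -0.08 (limma, adjusted p = 0.849; interval -0.42 to 0.27). Calls were rare here, at 1.54% of tested rows (0.69% higher and 0.849% lower).

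Overexpression was then set directly against knockdown. Zbtb8os was higher under overexpression by 0.36 ± 0.06 on the log2 scale (limma, adjusted p = 0.00187), in a comparison where 28.1% of tested rows were called higher and 40.5% in either direction. It was the 1 member of 3 called. This call held under each of 15 other settings (limma, adjusted p from 0.00140 to 0.0143). Wdr83os differed by 0.01 with a 95% interval from -0.13 to 0.15 (limma, adjusted p = 0.902), and its sign turned with median log ratio scaling (-0.07) and quantile normalization (-0.12). Ccpg1os had a difference of -0.23 (limma, adjusted p = 0.257; interval -0.57 to 0.12), which was called without knockdown 2 (-0.46, adjusted p = 0.0273). The 3 comparisons share libraries, so their values are not independent of each other.

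The genes across from the members were read beside them, since 5 of the 10 members share exonic bases with a gene on the other strand and no source used here states how strand was set in counting. Whether reads from shared bases were counted for one gene or both is therefore not known here. Wdr83os (chromosome 8, 85080740 to 85082339, plus strand, GRCm38 in GENCODE) shares 539 of its 1031 exonic bases (52.3%) with Wdr83, which encodes a WD-repeat protein and starts 566 bases from it on the minus strand. Wdr83 stood at 7.31 and 8.41 FPKM in the controls, 7.29 and 9.11 under overexpression, and 8.20 and 7.64 under knockdown. Its groups overlapped, and its log2 fold change was 0.05 ± 0.10 under overexpression and 0.01 ± 0.10 under knockdown (limma, adjusted p = 0.849 and 0.937).

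Zbtb8os (chromosome 4, 129335695 to 129354547, plus strand) has 2 neighbours on the minus strand. Its far end shares 264 of its 4500 exonic bases (5.87%) with Zbtb8a, a zinc finger and BTB domain gene. Its start lies 325 bases from that of Rbbp4, which encodes a histone-binding protein of several chromatin complexes. Zbtb8a stood at 3.58 and 3.75 FPKM in the controls, 3.65 and 3.47 under overexpression, and 3.04 and 2.62 under knockdown. It fell under knockdown by 0.29 ± 0.08 (limma, adjusted p = 0.01998). That call was lost after median log ratio scaling (adjusted p = 0.0553), without a filter on low values (0.0565), without control 1 (0.0601), control 2 (0.101) and knockdown 2 (0.112). Rbbp4 fell under knockdown by 0.23 ± 0.05 (limma, adjusted p = 0.00588), a call lost after quantile normalization (adjusted p = 0.178). Under overexpression the log2 fold changes were -0.03 for Zbtb8a and 0.00 for Rbbp4, neither called (limma, adjusted p = 0.884 and 0.998).

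Ccpg1os (chromosome 9, 72979722 to 72985382, minus strand) starts 47 bases from Ccpg1, an autophagy receptor gene of the endoplasmic reticulum, and shares 0 exonic bases with it. Ccpg1 was not called under overexpression (-0.11 ± 0.07) or under knockdown (0.02 ± 0.07; limma, adjusted p = 0.450 and 0.825).

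**Figure D3:**
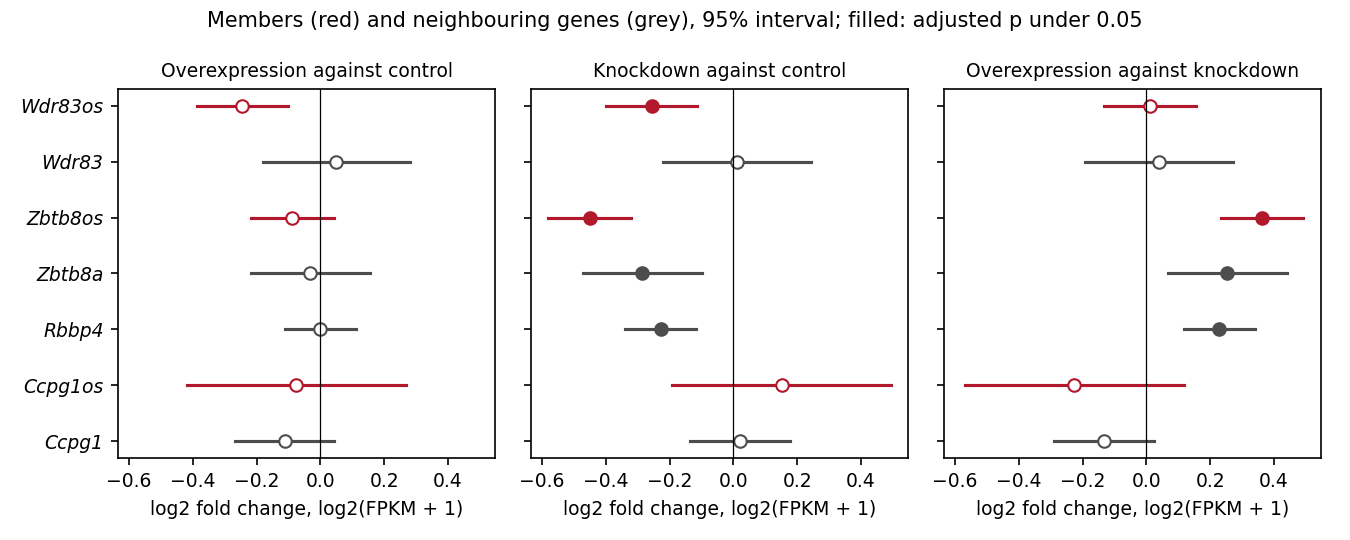
Log2 fold change with its 95% interval (horizontal axes) for the 3 tested members in red and their neighbours in grey, in the 3 comparisons; filled points are called. Under knockdown Zbtb8os, Zbtb8a and Rbbp4 lie left of 0, while Wdr83 stays at 0.01 beside Wdr83os at -0.26.

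The members with values in some libraries were near the limit of what the table records. Snhg11 (chromosome 2, 158375638 to 158386145, plus strand) stood at 0.00815 and 0.0333 FPKM in the controls, at 0 and 0.00913 under overexpression, and at 0.0318 and 0.0923 under knockdown. The knockdown and control ranges overlapped. After allowing for relative library depths of 0.891 to 1.08, read from the low rows of the table, the 5 values above 0 were 1.002, 4.011, 1, 4.018 and 12.24 times the smallest of them. Read counts behind these values are unknown, and no fold change is given for Snhg11.

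Fancd2os, opposite the DNA repair gene Fancd2, was at 0 and 0.0177 FPKM in the controls, 0 in both overexpression libraries, and 0.0842 and 0.0160 under knockdown. By the same measure its 3 values above 0 stood at 1.005, 5.018 and 1 times the smallest. Of its 1359 exonic bases, 257 (18.9%) lie over Fancd2, which stood at 12.7 to 14.4 FPKM over all libraries.

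Grin1os was above 0 in 1 library, knockdown 2, at 0.0476 FPKM. It lies within Grin1, which encodes the obligatory subunit of NMDA receptors, and shares 1307 of its 2891 exonic bases (45.2%) with it. Grin1 stood at 9.57 and 10.1 FPKM in the controls, 8.71 and 9.76 under overexpression, and 11.7 and 10.4 under knockdown. The Grin1os row thus stayed at or near 0 in libraries where its neighbour was above 8 FPKM.

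Csmd2os and Nudt12os were listed at 0 in all 6 libraries, and their neighbours were low as well. Csmd2, a large membrane protein gene, was at 0 to 0.0222 FPKM and Nudt12, which encodes a nucleotide hydrolase, at 0 to 0.0369. Trpc5, the cation channel gene across from Trpc5os, was listed at 0 in all 6 libraries, although Trpc5os was above 0 in each. Trpc5os shares 0 exonic bases with it.

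**Figure D4:**
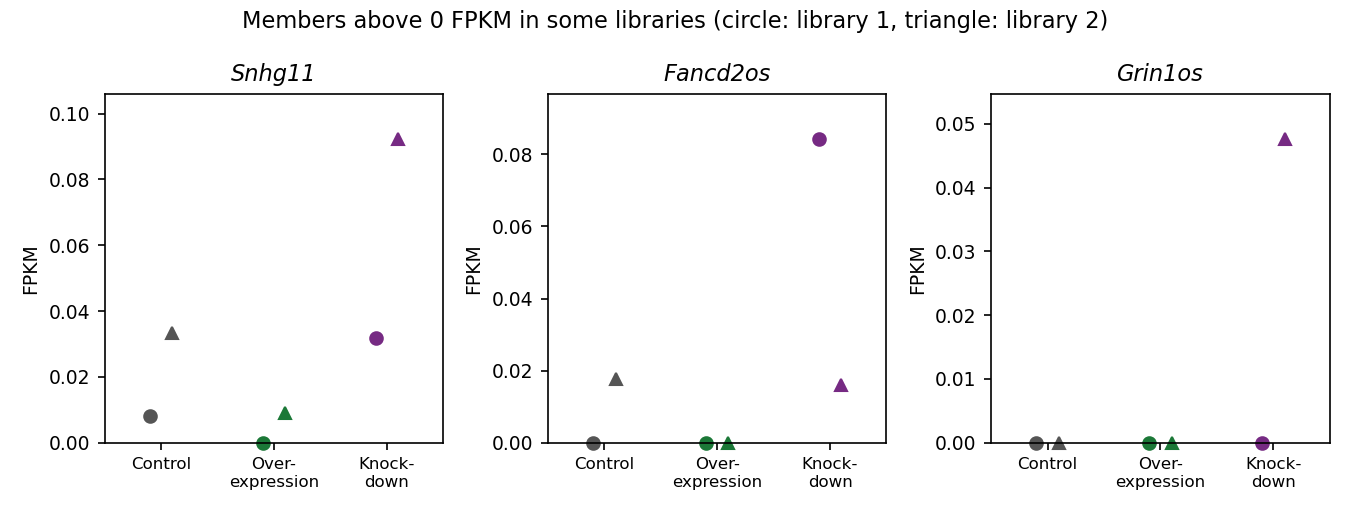
FPKM (vertical axes, from 0, each with its own scale) of 3 members above 0 in some libraries only, by group, with 1 point per library (circle 1, triangle 2). The highest points are Snhg11 at 0.0923 in knockdown 2 and Fancd2os at 0.0842 in knockdown 1, and most others lie at or near 0.

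Lists of 8 and 14 genes were drawn up around the proteins that work with the called members, after the members' values had been seen. Of the 8 genes of the PAT complex and the translocon for multipass membrane proteins, all tested, 7 were lower and 0 higher under knockdown, where 31.3% of all tested rows were lower and 14.8% higher. Their median log2 fold change was -0.24, against -0.07 over all tested rows. Sec61b (-0.54 ± 0.06), Sec61a1 (-0.35 ± 0.05) and Sec61g (-0.28 ± 0.05), the 3 subunits of the protein channel, and Nomo1 (-0.32 ± 0.05) had the smallest p. Ccdc47, the partner of Asterix, was not called (-0.06 ± 0.06; limma, adjusted p = 0.435). The number lower went to 4 after median log ratio scaling and 3 after quantile normalization, and was 5 to 7 with a library left out. After those scalings 0 of the 8 were higher, and 42.3% and 40.1% of all tested rows were called in either direction. With a library left out, fewer of all tested rows were called as well. Under overexpression limma called 0 of the 8, while the value of Wdr83os was -0.25. There 1 of the 8 had an unadjusted p under 0.05 (limma), as had 1833 of all 10721 tested rows.

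Of the 13 tested genes of the RNA ligase complex and transfer RNA splicing, 8 were lower and 1 higher under knockdown, with a median of -0.19, against 31.3% lower, 14.8% higher and a median of -0.07 over all tested rows. Fam98a, a ligase complex subunit, fell by 0.38 ± 0.06 and Clp1, an RNA kinase, by 0.44 ± 0.07, both called in all settings run. Rtcb, the ligase that archease serves, was not called (-0.07 ± 0.04; limma, adjusted p = 0.224), and after quantile normalization it was called higher (0.14, adjusted p = 0.0267). Ern1, whose protein cuts the Xbp1 messenger RNA, rose by 0.32 ± 0.08, and Xbp1 fell by 0.19 ± 0.05 (limma, adjusted p = 0.00928), a call lost after either scaling (adjusted p = 0.0819 and 0.644), without control 1 (0.0510) and without control 2 (0.0527). The number lower went to 3 after median log ratio scaling and, with 2 higher, to 2 after quantile normalization, and was 3 to 8 with a library left out. With 4 of 13 called in either direction after each scaling, the list stood below the 42.3% and 40.1% of all tested rows called under those scalings. Without control 1, control 2 or knockdown 2 fewer of all tested rows were called as well. The median of the list was -0.19, -0.18 and -0.14 there, against -0.08, -0.06 and -0.07 over all tested rows. Under overexpression limma called 0 of the 13, with 1 at an unadjusted p under 0.05, against 1833 of all 10721 tested rows.

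**Figure D5:**
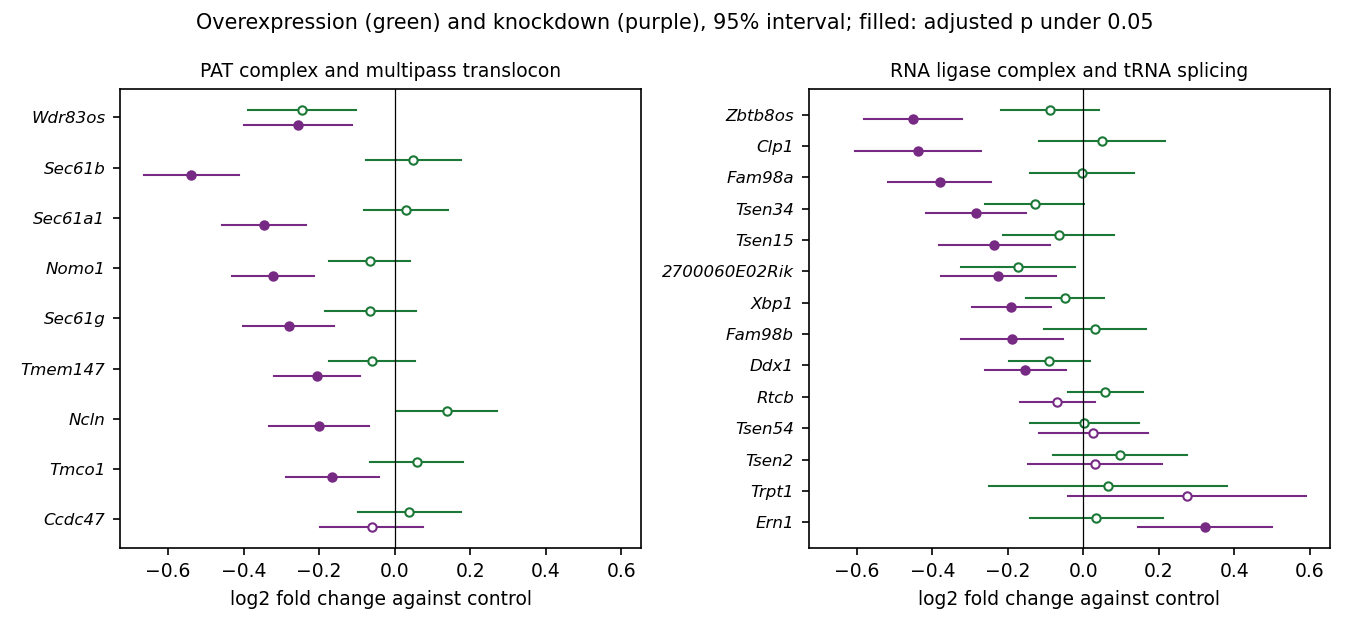
Log2 fold change against control with its 95% interval (horizontal axes) for Wdr83os and 8 genes of its pathway, and for Zbtb8os and 13 of its own, in overexpression (green) and knockdown (purple); filled points are called. The purple points of Wdr83os and 7 of the 8 genes are filled and left of 0, and no green point is filled.

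Lists drawn up for long noncoding RNA and snoRNA biology in general are given by their counts, to be read against the 31.3% of all tested rows that were lower under knockdown, the 14.8% that were higher and the median of -0.07. Of 19 tested snoRNP factors, 0 rose and 10 fell under knockdown (median -0.20), among them Ruvbl2 (-0.48 ± 0.05), Nhp2 (-0.38 ± 0.05) and Dkc1 (-0.57 ± 0.08), the last of these the pseudouridine synthase of H/ACA particles such as those of the Snhg11 snoRNAs. The number lower was 8 after median log ratio scaling and 6 after quantile normalization, with 0 higher after either. Of all tested rows, 42.3% and 40.1% were called in either direction after those scalings. Of 34 protein-coding snoRNA hosts, 3 rose and 9 fell, Ncl by 0.55 ± 0.06, a share of lower calls under that of all rows, with a median of -0.06, and the split turned to 12 higher and 4 lower after quantile normalization and 6 and 4 after median log ratio scaling; without a library, 5 to 10 were lower. Of 21 nonsense-mediated decay genes, 3 rose and 10 fell (median -0.19; 4 higher and 7 lower after quantile normalization), and of 19 paraspeckle genes 2 rose and 12 fell (median -0.21; 3 and 9 after either scaling), Nono by 0.68 ± 0.05. Of 14 microRNA biogenesis genes, 1 rose and 5 fell, Drosha by 0.84 ± 0.05 (median -0.12; 3 and 2 after median log ratio scaling, 1 and 3 after quantile normalization, and 2 to 5 lower without a library). Of 13 Myc and growth regulators, 2 rose and 4 fell (median -0.03, or 0.05 after median log ratio scaling), and of 10 tested genes beside the named long noncoding RNAs 2 rose and 1 fell (median -0.03, or 0.05 and 0.07 after the 2 scalings). Under overexpression limma called 1 gene of these 7 lists, Slc22a18 (-0.57 ± 0.11, adjusted p = 0.0496), a neighbour of Kcnq1ot1, and that list had 0 calls without a filter, with the 5 FPKM filter, without an expression trend, with the replicate block, and without either control or either overexpression library. The Myc list had 1 lower call after median log ratio scaling, with the 5 FPKM filter, with only the 4 libraries compared and without overexpression 2. The counts of the microRNA and Myc lists under knockdown are near the shares of all rows. Under overexpression each of the 7 lists had 1 to 3 genes at an unadjusted p under 0.05 (limma), against 1833 of all 10721 tested rows.

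Rows whose symbols end in os but fall outside the rule are Slc7a6os, Cebpzos, Crxos and Slc6a19os. Slc7a6os stood at 33.2 to 39.3 FPKM and Cebpzos at 5.05 to 6.26. Neither was called against control, with log2 fold changes of 0.12 ± 0.07 and 0.15 ± 0.08 under knockdown (limma, adjusted p = 0.173 and 0.158). Crxos and Slc6a19os did not exceed 0.0282 FPKM.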

How the data were processed

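The authors deposited 1 FPKM value per library for each gene row. Per the submitters' processing notes, the tools included DESeq, HTSeq, Cufflinks, HISAT2 and Trimmomatic, with the build mm10. Not given in the sources used here are versions, annotation, filters and strand setting. Since FPKM is relative to a library total, abundant genes that change shift the values of others.

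The 10721 rows averaging 1 FPKM or more were tested on log2(FPKM + 1), which understates changes of low genes. Group means were estimated by limma 3.58.1 (R 4.3.3) with an expression trend, all 6 libraries sharing the spread (3 residual degrees of freedom). Calls have a Benjamini-Hochberg adjusted p under 0.05 over all rows tested. The fit was run on simulated data with normal noise of the fitted spread and changes in few rows of the overexpression group. Such data differ from the knockdown comparison, where 46.2% of tested rows were called, so that run does not bear on it. Members and lists were chosen with earlier results of these data known. All tested members, called members and up to 4 genes per list by smallest p are named, and further list genes where a member's partner or a lost call asked for it. All 10 symbols matched GENCODE M 21 and RefSeq, and coordinates are on GRCm38. The values of 1 member are not reported here.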

Additional observations from a re-analysis of the deposited data

How the results depend on the processing

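Alternatives were a filter at 5 FPKM (which leaves out Ccpg1os) or none, pseudocounts of 0.1 and 0.5, 2 scalings, no expression trend, only the 4 libraries compared, the replicate block, and each library left out. Under knockdown 2 members were called, 1 after quantile normalization, and 1 to 3 with a library left out. Against knockdown, overexpression had 1 called, and 1 to 2 with a library left out. Against control it had 0 under every setting run. In that comparison the share of all tested rows called ran from 0.052% without a filter to 1.76% after median log ratio scaling. With the replicate number as a block, 2, 1 and 0 members were called, beside 42%, 35.6% and 0.616% of all tested rows. The block left the members' calls as they were. The numbers share only a label: deviations correlated at -0.117 (control and overexpression), 0.00692 (control and knockdown) and -0.211 (overexpression and knockdown).

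Directions of members turned only for values that were not called in the reported fit on all 6 libraries. Ccpg1os moved from -0.084 to 0.39 under knockdown, from -0.17 to 0.016 under overexpression and from -0.46 to 0.0085 between the treated groups with a library left out. Wdr83os between the treated groups stood at -0.067 after median log ratio scaling, at -0.12 after quantile normalization, and at -0.055 to 0.077 with a library left out. Leaving out a library of a compared group leaves it 1, assumed to vary like the others. With 2 libraries a group, small differences may be missed. Of the 7 members under the filter, 5 were tested only without it, where none was called, and 2 were at 0 throughout. Without the filter 28.3% of all tested rows were called under knockdown, 23.9% between the treated groups and 0.052% under overexpression.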
